A study of Homo sapiens with 12 samples.

Results

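A set of 5 genes of the cell surface, the surrounding matrix and the cytoskeleton was followed across NS-SV-AC cells, a line derived from acinar cells of the human salivary gland. They were FN1, HSPG2, LRP1, FLNC and NES, 5 of the 60609 annotated genes, and they were chosen by their gene TPM in these same libraries, which was lower after transfection of poly I:C, a man-made double-stranded RNA. Their poly I:C values are therefore a description without a test. The study is on double-stranded RNA of mitochondrial origin and Sjögren's syndrome, and polyadenylated RNA was sequenced in 12 libraries, 2 in each of 6 groups. Cells received the nucleoside analogue 2-CM (2'-C-methyladenosine), the plant polyphenol RES (resveratrol) or DMSO alone 24 h ahead of transfection and a second time with it. The dose of 2-CM and RES was 20, taken here as micromolar, and DMSO was matched by volume. Transfection was with poly I:C, for 14 h, or with the control named depc in the labels. The cells were cultured for 48 h. Every group was transfected and received DMSO or a compound.

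Fibronectin, the product of FN1, is a secreted glycoprotein that cells assemble into fibrils through integrins, and perlecan, the product of HSPG2, is the large heparan sulfate proteoglycan of basement membranes. LRP1 is an endocytic receptor of the lipoprotein receptor family that takes up proteases, their inhibitors and matrix proteins, fibronectin among them. Filamin C, the product of FLNC, crosslinks actin and ties it to the membrane, and nestin, the product of NES, is an intermediate filament protein that assembles with vimentin.

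Of the 6 acinar markers with a value, 2 reached 1 TPM: the ion cotransporter gene SLC12A2 (1.296 to 8.12 TPM) and the transcription factor gene BHLHA15 (0.507 to 2.69 TPM). The water channel gene AQP5 and the salivary protein gene PRB1 were listed at 0 TPM in every library, and AMY1A, for salivary amylase, and CHRM3, for a muscarinic receptor, reached at most 0.046 and 0.092 TPM. TPM is a level divided by transcript length and scaled to the same total in every library. The keratins KRT8 (630 to 1958 TPM) and KRT18 (466 to 1571 TPM) were abundant, CDH1 stayed at or below 0.596 TPM, and the mesenchymal filament gene VIM ran from 386 to 819 TPM. Of 8 fibroblast markers, VIM among them, 6 reached 1 TPM, including COL1A1 (15.9 to 100.3 TPM), COL3A1 (14.2 to 60.1 TPM) and LUM (1.89 to 32.5 TPM), while COL1A2 and PDGFRA stayed at or below 0.019 and 0.081 TPM. By contrast the 3 endothelial markers summed to at most 0.258 TPM. In such bulk samples, fewer cells of a type and less RNA per cell cannot be told apart. Transfection was visible in the interferon-induced gene MX1, which ran from 12.5 to 19.4 TPM in the depc libraries and from 146 to 446 TPM in the poly I:C libraries. One library, RES poly I:C replicate 1, had the lowest ratio of 5′ to 3′ coverage in 4 of the 5 genes. The values without it are given with the coverage. Libraries held an estimated 31.2 to 49.4 M reads. LRP1, the member with the fewest, had an estimated 1453 to 11630 reads per library, and FN1, the member with the most, 7379 to 70653.

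The 250 bases before the RefSeq start of each gene (GRCh38.p14, 5 of 5 genes matched) are shown for the 3 genes whose windows were densest in GC boxes, since the 5 genes move together with poly I:C. FN1 is on the minus strand (window chr2:215436069-215436318), HSPG2 is on the minus strand (chr1:21937311-21937560) and FLNC is on the plus strand (chr7:128830156-128830405). Each is printed 5′ to 3′ in the direction of transcription. Capitals mark matches on either strand to the GC box GGGCGG in all 3 windows, to the cyclic AMP response element TGACGTCA and the CCAAT box in FN1, and to GGAATG, the core bound by TEAD factors, in FLNC.
FN1: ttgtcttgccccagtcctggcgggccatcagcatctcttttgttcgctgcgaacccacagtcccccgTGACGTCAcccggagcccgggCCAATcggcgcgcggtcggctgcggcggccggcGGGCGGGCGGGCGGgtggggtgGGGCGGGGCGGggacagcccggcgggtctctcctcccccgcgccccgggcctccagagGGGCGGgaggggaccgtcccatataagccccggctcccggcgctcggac
HSPG2: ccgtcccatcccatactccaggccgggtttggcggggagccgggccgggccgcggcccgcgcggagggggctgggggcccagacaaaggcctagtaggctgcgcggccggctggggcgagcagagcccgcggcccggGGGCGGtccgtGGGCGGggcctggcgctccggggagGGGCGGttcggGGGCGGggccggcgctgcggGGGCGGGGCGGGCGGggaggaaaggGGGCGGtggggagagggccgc
FLNC: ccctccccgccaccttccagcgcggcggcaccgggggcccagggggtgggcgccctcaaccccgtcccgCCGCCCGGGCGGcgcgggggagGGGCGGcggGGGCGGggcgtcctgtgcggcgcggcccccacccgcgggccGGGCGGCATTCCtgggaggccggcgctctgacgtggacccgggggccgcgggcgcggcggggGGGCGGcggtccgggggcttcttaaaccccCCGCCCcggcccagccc
Overlapping matches were each counted. The window held 8 GC boxes in HSPG2, 7 in FLNC, 6 in FN1, 2 in NES and 1 in LRP1. Of 27305 promoter windows of this length, 42.3% held at least 1 and 7.82% held 4 or more. The response element of FN1 began at position -183 (1.77% of windows held one) and its CCAAT box at -162 (33.0%). The FLNC match to GGAATG was at -103, directly after a GC box, and 11.9% of windows held these letters. None of the 5 windows held TATAAA (11.1% of windows), the AP-1 letters TGANTCA (6.60%), a match to the core of the interferon-stimulated response element (3.07%) or the STAT letters TTCNNNGAA (6.78%). GC content was 85.6% in the FLNC window, 82.8% in HSPG2, 76.4% in FN1, 67.6% in LRP1 and 58.0% in NES, beside a median of 58.0% over all windows. These matches describe letters and were not tested as sites.

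FN1 (ENSG00000115414.19, chr2:215360440-215436073 in hg38, minus strand, 27 annotated transcripts) had the highest level of the 5 genes in DMSO depc cells and, under DMSO, the largest difference with poly I:C. Under DMSO the 2 depc libraries held 259.6 and 214 TPM and the 2 poly I:C libraries 42.1 and 32.5 TPM. Under 2-CM, depc libraries held 266 and 213 TPM and poly I:C libraries 139.6 and 135 TPM. Under RES, depc libraries held 119 and 87.9 TPM and poly I:C libraries 39.7 and 54.2 TPM. The poly I:C libraries lay below the depc libraries under each compound, without overlap. The mean with poly I:C was 15.8% of the depc mean under DMSO, 57.4% under 2-CM and 45.5% under RES. The log2 difference on the log2(TPM + 1) scale was -2.64 with DMSO, -0.79 with 2-CM and -1.12 with RES (SE 0.24 each), with 2 libraries a group. By mean, 2-CM depc and DMSO depc came first and overlapped, followed by 2-CM poly I:C and RES depc, which each stood clear of the next group. RES poly I:C and DMSO poly I:C were lowest and overlapped.

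HSPG2 (ENSG00000142798.20, chr1:21822244-21937310, minus strand) was lower with poly I:C under each compound. Its depc libraries held 31.99 and 32.2 TPM (DMSO), 24.6 and 31.4 TPM (2-CM) and 33.1 and 38.1 TPM (RES). Its poly I:C libraries held 8.08 and 10.6 TPM (DMSO), 7.61 and 8.46 TPM (2-CM) and 9.29 and 8.76 TPM (RES). All 6 poly I:C libraries lay below all 6 depc libraries. The poly I:C mean was 29.1%, 28.7% and 25.4% of the depc mean under DMSO, 2-CM and RES, and the log2 differences were -1.69, -1.67 and -1.86 (SE 0.21 each). How near these values lie to each other depends on the scale: relative to the median of all genes they were -1.55, -2.29 and -1.84, and after correction for GC content -1.18, -1.08 and -1.38.

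LRP1 (ENSG00000123384.14, chr12:57128483-57213361, plus strand) was the least abundant member, and its depc level was highest under RES. Depc libraries held 15.002 and 14.4 TPM (DMSO), 13.7 and 16.2 TPM (2-CM) and 25.2 and 28.3 TPM (RES). Poly I:C libraries held 4.22 and 5.12 TPM (DMSO), 4.92 and 5.34 TPM (2-CM) and 7.25 and 7.40 TPM (RES). The groups did not overlap between transfections, and the DMSO and 2-CM groups overlapped within each transfection. The poly I:C mean was 31.8%, 34.4% and 27.4% of the depc mean under DMSO, 2-CM and RES, with log2 differences of -1.47, -1.37 and -1.74 (SE 0.20 each).

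FLNC (ENSG00000128591.15, chr7:128830377-128859274, plus strand) was likewise lower with poly I:C under each compound. Depc libraries held 113 and 117 TPM (DMSO), 121 and 141 TPM (2-CM) and 111 and 139 TPM (RES). Poly I:C libraries held 22.3 and 31.0 TPM (DMSO), 36.6 and 37.6 TPM (2-CM) and 40.6 and 35.7 TPM (RES). The 3 depc groups lay close together, all far above the poly I:C groups. The poly I:C mean was 23.2%, 28.4% and 30.4% of the depc mean under DMSO, 2-CM and RES, with log2 differences of -2.09, -1.79 and -1.68 (SE 0.20 each).

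NES (ENSG00000132688.11, chr1:156668763-156677407, minus strand, a single annotated transcript) had a smaller ratio under DMSO than under 2-CM or RES. Depc libraries held 57.0 and 53.0 TPM (DMSO), 61.2 and 50.4 TPM (2-CM) and 40.02 and 30.9 TPM (RES). Poly I:C libraries held 11.3 and 12.7 TPM (DMSO), 34.5 and 33.6 TPM (2-CM) and 15.4 and 16.0 TPM (RES). The 2-CM poly I:C libraries overlapped the RES depc libraries and stood clear of the other poly I:C libraries. The poly I:C mean was 21.8% of the depc mean under DMSO, 61.0% under 2-CM and 44.2% under RES, with log2 differences of -2.11, -0.69 and -1.12 (SE 0.19 each).

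**Figure D1:**
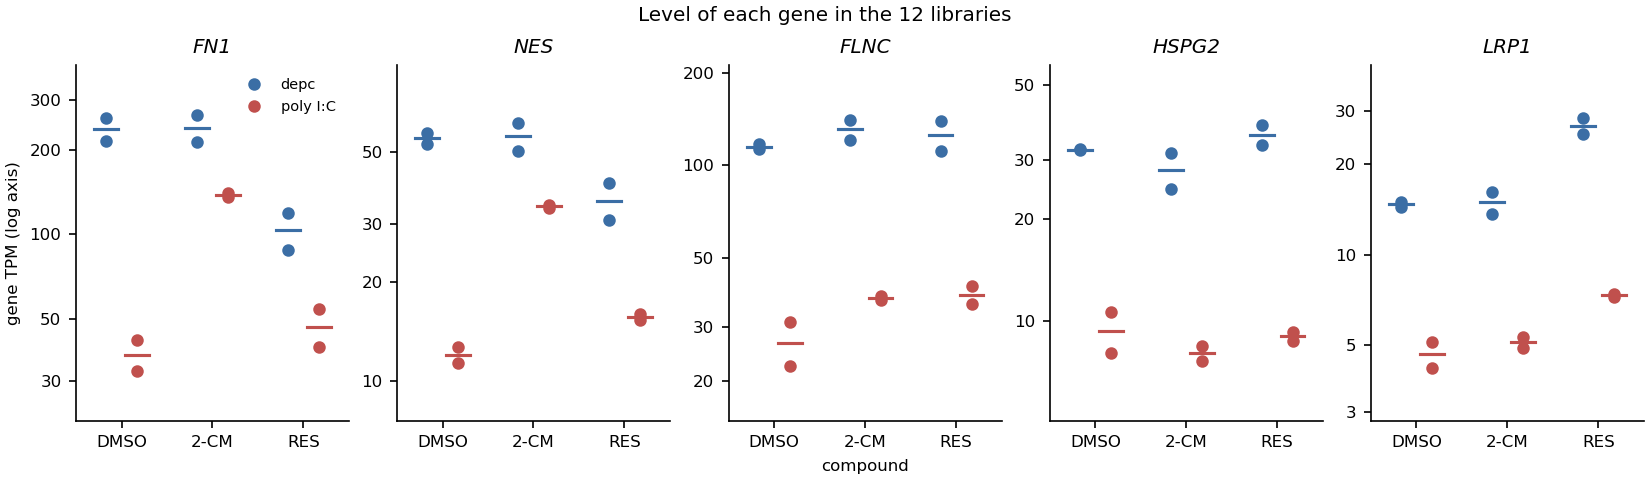
Gene TPM of the 5 genes on a log axis, by compound, with depc libraries in blue and poly I:C libraries in red; each point is 1 library and each short line the mean of 2. FN1 with poly I:C sits at 139.6 and 135 TPM under 2-CM against 42.1 and 32.5 TPM under DMSO, while HSPG2 with poly I:C stays between 7.61 and 10.6 TPM under all 3 compounds.

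All 5 genes were thus lower with poly I:C, for which they were chosen. They were lower under each compound without overlap of replicates, as were 12.6% of the 17185 genes tested. Under DMSO, 2-CM and RES taken singly, the share of genes was 33.4%, 23.9% and 24.1%. The levels of all genes moved as well: the median log2 difference over the genes tested was -0.14 (DMSO), 0.61 (2-CM) and -0.03 (RES). Relative to that median, FN1 stood at -2.50, -1.40 and -1.09 under DMSO, 2-CM and RES, and NES at -1.97, -1.30 and -1.09. FLNC stood at -1.95, -2.40 and -1.66, and LRP1 at -1.34, -1.99 and -1.71. On this relative scale, under 2-CM the 2 genes with the smaller differences were again FN1 and NES. That order depends on base composition: after correction for GC content, FN1 had the largest difference of the 5 under 2-CM (-1.29), followed by FLNC (-1.26), and NES the smallest (-0.32).

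**Figure D2:**
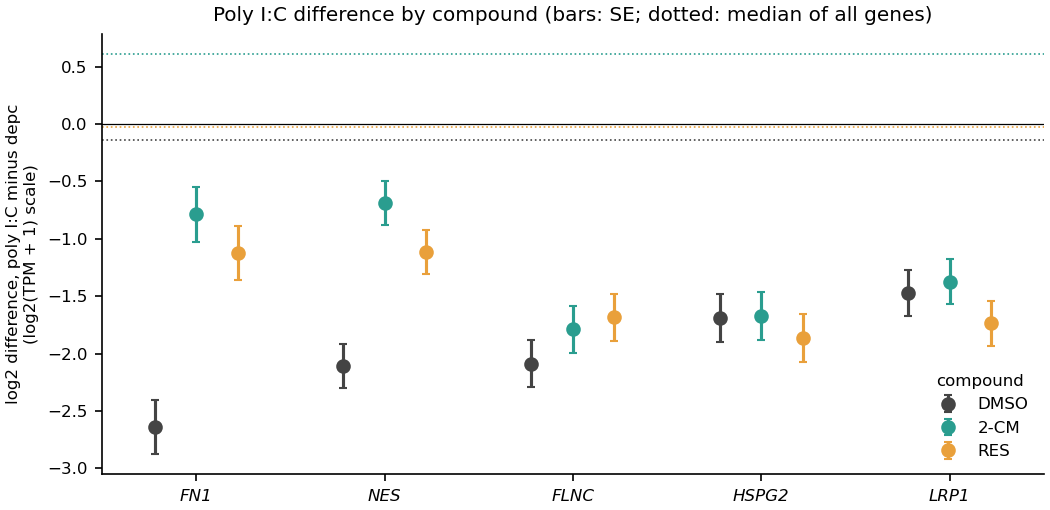
Log2 difference of poly I:C minus depc for each gene under DMSO, 2-CM and RES on the log2(TPM + 1) scale; points are fitted differences, bars 1 SE, and dotted lines the median of all genes tested under the compound of that colour. FN1 runs from -2.64 under DMSO to -0.79 under 2-CM, and HSPG2 from -1.69 to -1.67.

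The response of FN1 to poly I:C was 1.85 log2 units (SE 0.33) smaller in size under 2-CM than under DMSO, and 1.52 (SE 0.33) smaller under RES. For NES these differences were 1.42 and 0.99 (SE 0.27 each). FLNC differed from DMSO by 0.30 under 2-CM and 0.40 under RES (SE 0.29 each), HSPG2 by 0.02 and -0.18 (SE 0.30 each) and LRP1 by 0.10 and -0.26 (SE 0.28 each). Both differences share the DMSO libraries, and they include the shift in the median of all genes, 0.68 under 2-CM and 0.11 under RES. Relative to that median, the differences under 2-CM were 1.17 for FN1, 0.74 for NES, -0.38 for FLNC, -0.66 for HSPG2 and -0.58 for LRP1. The genes were chosen by these same contrasts, so the differences are a description without a test.

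In the authors' deposited table, which was made from another normalisation, the log2 changes under DMSO were -2.35 for FN1, -1.96 for NES, -1.87 for FLNC, -1.56 for HSPG2 and -1.51 for LRP1. Under 2-CM the authors' deposited table gave -1.72 for FN1 and -1.55 for NES, and -2.67, -2.69 and -2.43 for FLNC, HSPG2 and LRP1. Under RES the authors' deposited table gave -1.18 for FN1, -1.12 for NES, -1.71 for FLNC, -1.995 for HSPG2 and -1.88 for LRP1. FN1 and NES had the smallest changes of the 5 in the authors' deposited table for 2-CM and for RES, and the largest for DMSO.

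The compounds were also compared with each other within a transfection. The libraries are those by which the 5 genes were chosen, and the low DMSO poly I:C values of FN1 and NES in particular favour a higher reading under a compound, so the differences are a description without a test. Intervals are those of limma and take no account of the choice. A fold is the ratio of mean TPM and a log2 difference is on the log2(TPM + 1) scale, which is smaller for low genes. For FN1 with poly I:C, the ratio of 2-CM to DMSO means was 3.69 and the log2 difference 1.87 (95% interval 1.33 to 2.40). For NES the ratio of means was 2.84 and the log2 difference 1.43 (0.996 to 1.87). For both genes the 2-CM libraries lay above both DMSO libraries, as they did for 70.4% of genes. The median of all genes stood at 0.59 in this comparison, and FN1 was 1.28 and NES 0.85 above it. FLNC was at 0.48 (0.02 to 0.94), LRP1 at 0.12 (-0.33 to 0.57) and HSPG2 at -0.19 (-0.66 to 0.29). FLNC stayed above 0 in 22 and LRP1 in 17 of 24 alternatives. Many of these, such as another filter or a library of another group left out, cannot move the difference. LRP1 was below 0 with FPKM (-0.12), voom (-0.12), upper-quartile (-0.45) or median-of-ratios scaling (-0.53). It was also below 0 without mitochondrial genes (-0.025) and after GC correction (-0.11), and above 0 with a pseudocount of 0.1 (0.14). FLNC was below 0 with upper-quartile (-0.19) or median-of-ratios scaling (-0.28).

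Over 24 alternatives the difference between 2-CM and DMSO with poly I:C ran from 1.09 to 2.05 for FN1 and from 0.68 to 1.51 for NES. For FLNC it ran from -0.28 to 0.71, for LRP1 from -0.53 to 0.23 and for HSPG2 from -0.88 to -0.01. Median-of-ratios scaling gave the lowest value of each of the 5 genes. GC content moved with this comparison: over the genes tested, which do not act as replicates, the Spearman correlation of GC content with the difference was -0.62. After correction for GC content the difference was 1.38 for FN1 and 1.196 for NES.

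Between RES and 2-CM with poly I:C, FN1 was lower under RES, with a ratio of means of 0.341 and a log2 difference of -1.55 (95% interval -2.08 to -1.01) that ran from -1.77 to -1.10 over the alternatives. NES was at -1.07 (-1.51 to -0.64) and ran from -1.11 to -0.64. The median of all genes was -0.35. Between RES and DMSO with poly I:C, FN1 differed by 0.32 (-0.22 to 0.86), NES by 0.36 (-0.08 to 0.80), FLNC by 0.52 (0.05 to 0.98), LRP1 by 0.56 (0.11 to 1.01) and HSPG2 by -0.03 (-0.51 to 0.44), beside a median of 0.28 over all genes. With median-of-ratios scaling these differences were -0.01, 0.04, 0.19, 0.27 and -0.34 in the same order.

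In depc cells the FN1 level was lower and the LRP1 level higher under RES than under DMSO in both libraries. FN1 had a ratio of means of 0.436 and a log2 difference of -1.20 (95% interval -1.74 to -0.66). LRP1 had a ratio of means of 1.82 and a log2 difference of 0.82 (0.37 to 1.27), and NES was at -0.63 (-1.06 to -0.19). For these 3 genes and for HSPG2, both RES libraries lay on the same side of both DMSO libraries. Of all genes, 8.47% did so on the low side and 25.7% on the high side. After correction for GC content the differences were -1.39, 0.60 and -0.84 for FN1, LRP1 and NES. FLNC was at 0.11 (-0.35 to 0.58) and HSPG2 at 0.14 (-0.34 to 0.62), beside a median of 0.15 over all genes, and both were below 0 with upper-quartile or median-of-ratios scaling. Against 2-CM in depc cells, the values under RES were -1.21 for FN1, 0.81 for LRP1 and -0.64 for NES, beside a median of 0.34. Over the alternatives they ran from -1.63 to -0.998, from 0.41 to 0.95 and from -1.06 to -0.46, and median-of-ratios scaling gave the lowest value of each.

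In the fit over all genes, 2 of the 5 genes, FN1 and NES, had a limma adjusted p under 0.05 for 2-CM against DMSO with poly I:C (0.105% of all genes), 1, FN1, for RES against 2-CM with poly I:C (0.576%), and 0 for RES against DMSO with poly I:C (0.157%) and in depc cells for RES against DMSO (1.03%), RES against 2-CM (0.599%) and 2-CM against DMSO (0.0349%). Because of the choice of genes nothing is read from these counts. After correction for GC content they were 2, 2, 0, 3, 2 and 0, in fits that called 5.7%, 11.1%, 7.59%, 12.7%, 12.8% and 0.0931% of all genes in the same order.

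Between 2-CM and DMSO in depc cells, the difference was 0.01 for FN1 (95% interval -0.52 to 0.55) and 0.02 for NES (-0.42 to 0.45). It was 0.02 for LRP1 (-0.43 to 0.47), 0.18 for FLNC (-0.28 to 0.64) and -0.20 for HSPG2 (-0.68 to 0.28). In all, 3 pairs of compounds were compared in each transfection.

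**Figure D3:**
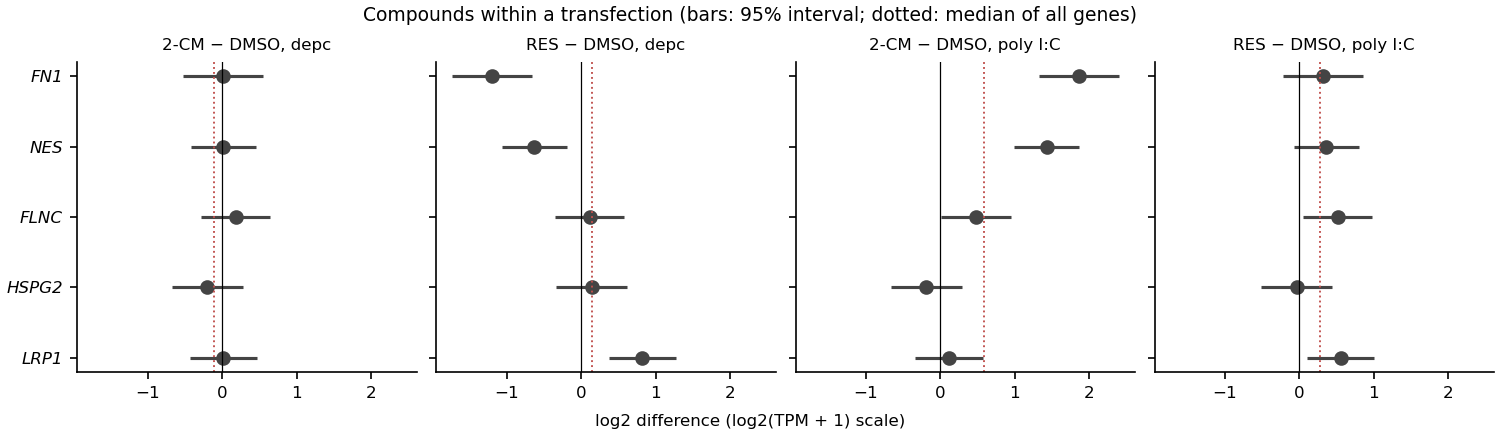
Log2 differences of 2-CM or RES from DMSO in depc and in poly I:C cells for the 5 genes, on the log2(TPM + 1) scale; points are fitted differences, bars 95% intervals, and the dotted line the median of all genes tested. With poly I:C under 2-CM, FN1 (1.87) and NES (1.43) lie right of the median of 0.59, and in depc cells under RES, FN1 (-1.20) and LRP1 (0.82) lie on opposite sides of 0.

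Across the 12 libraries the 5 genes were all positively correlated. On log2(TPM + 1), Pearson's r was 0.98 between FN1 and NES, 0.96 between FLNC and HSPG2, 0.95 between HSPG2 and LRP1 and 0.93 between FLNC and LRP1. It was lower between FN1 and FLNC (0.74), HSPG2 (0.62) and LRP1 (0.51), and between NES and FLNC (0.83), HSPG2 (0.72) and LRP1 (0.64). The libraries hold the difference between transfections that all 5 share, and its part in these correlations was not tested. The correlations are given as a description. The members were left out when other genes were ranked by r. Of 10178 such genes with a mean of at least 5 TPM, those closest to FN1 were RTL6, FAM171A1 and SF1 (r = 0.96 each). Those closest to NES were VPS26B, GPRC5A and URB1 (r = 0.97 each). Closest to FLNC were DCHS1, PLXNB2 and ITGA5 (r from 0.992 to 0.995), the last an integrin chain that binds fibronectin. Closest to HSPG2 were CSPG4, COL4A2 and PTPRF (r from 0.98 to 0.99). COL4A2 is a collagen IV chain of the basement membrane in which perlecan sits. Closest to LRP1 were CELSR1 and CLSTN1 (r = 0.99 each). The order depends on the measure. By Spearman's correlation DCHS1 ranked 495 for FLNC, PTPRF 111 for HSPG2 and VPS26B 47 for NES, while CELSR1 ranked 2 for LRP1.

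The genes that work with the 5 members were read from 5 lists, 117 genes tested in all. The lists were written with earlier results of these data known, so their counts are a description. The lowest and highest genes of each list by the poly I:C difference are named below, and their p-values take no account of that choice. Under DMSO, 28 of them fell with poly I:C and 0 rose, at a limma adjusted p under 0.05, where 3.28% of all genes fell and 0.797% rose. Under 2-CM, 36 fell and 20 rose (11.8% and 37.5% of all genes), and under RES, 10 fell and 0 rose (0.244% and 0.198%). The median log2 difference of the 117 genes was -0.62, -0.01 and -0.44 under DMSO, 2-CM and RES. Over all genes it was -0.14, 0.61 and -0.03. After correction for GC content, 49 partner genes fell and 7 rose under 2-CM, where 2626 of all genes fell and 2371 rose. The counts depended on scaling: with median-of-ratios scaling 3 genes fell under DMSO, 64 fell and 11 rose under 2-CM, and 0 passed under RES, and the medians were -0.50, -0.78 and -0.42. Leaving out 1 library lowered the DMSO count to as few as 3 (without either DMSO depc library) and ended all calls under 2-CM when any 2-CM library was left out.

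Of 22 genes tested for fibronectin receptors and matrix assembly, 6 fell under DMSO (COL1A1, COL5A1, ITGA3, ITGA5, TGM2 and TNC), 9 fell and 5 rose under 2-CM, and 2 fell under RES. COL5A1, a fibrillar collagen chain, had a mean of 72.7 ± 1.32 TPM (SD, n = 2) in DMSO depc and 20.1 ± 2.14 TPM in DMSO poly I:C. The log2 differences of COL5A1 were -1.81, -1.15 and -1.24 under DMSO, 2-CM and RES (limma adjusted p = 0.00191, 0.0141 and 0.0257). COL1A1 stood at -1.95, -1.14 and -1.09 (limma adjusted p = 0.00144, 0.0147 and 0.0401). ITGB1, the β chain shared by fibronectin-binding integrins, rose under 2-CM (2.31, SE 0.75, limma adjusted p = 0.0367). It was at 0.20 and 0.53 under DMSO and RES. SDC2, a heparan sulfate proteoglycan of the membrane, did likewise (1.63, limma adjusted p = 0.0322, against 0.45 and 0.79). Under 2-CM the median of all genes was 0.61, and 37.5% of them rose. Of all genes tested, 2 differed in their poly I:C response between 2-CM and DMSO and 0 between RES and DMSO. The threshold was a limma adjusted p under 0.05, and which 2 genes these were is not reported here.

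Of 24 genes for basement membrane and partners of perlecan, 6 fell under DMSO (COL18A1, COL4A2, LAMA1, LAMA5, LAMB2 and PXDN), 3 fell and 1 rose under 2-CM, and 2 fell under RES. COL4A2 stood at -1.35, -1.39 and -1.36 under DMSO, 2-CM and RES (limma adjusted p = 0.0104, 0.00769 and 0.0214). COL18A1, another basement membrane collagen, stood at -1.39, -1.38 and -1.17 (limma adjusted p = 0.0223, 0.0201 and 0.0789). HPSE, the enzyme that cuts heparan sulfate chains, was at 0.36, 0.81 and 0.06 and EFEMP1, a fibulin, at -0.45, 1.38 and 0.37, none of them past the threshold.

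Of 27 genes of the lipoprotein receptor family and of the chaperones and ligands of LRP1, 3 fell under DMSO (FURIN, LRP4 and MMP2), 9 fell and 6 rose under 2-CM, and 0 passed under RES. FURIN, the protease that cuts the LRP1 precursor into its chains, stood at -1.11, -0.94 and -0.84 under DMSO, 2-CM and RES (limma adjusted p = 0.0296, 0.0270 and 0.140). LRP5, a Wnt co-receptor, fell under 2-CM (-0.99, limma adjusted p = 0.0277) and was at -1.01 and -0.94 under DMSO and RES. CCN2, a matrix protein bound by LRP1, and MESD, a chaperone of the family, rose under 2-CM (1.58 and 1.36, limma adjusted p = 0.0273 and 0.0333), where the median of all genes was 0.61. CCN2 was at -0.46 and 0.30 and MESD at 0.14 and 0.27 under DMSO and RES, none of them past the threshold.

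Of 22 genes for filamins and actin crosslinkers, 9 fell under DMSO (among them ACTN1, FLNA, MYH9, SPTAN1, SPTBN1, TLN1, TLN2 and ZYX), 9 fell and 3 rose under 2-CM, and 5 fell under RES. FLNA, the filamin most abundant in non-muscle cells, fell under each compound. It had a mean of 297 ± 7.93 TPM (SD, n = 2) in DMSO depc and 80.0 ± 19.0 TPM in DMSO poly I:C, and stood at -1.90, -1.71 and -1.45 under DMSO, 2-CM and RES (limma adjusted p = 0.00472, 0.00591 and 0.0309). MYH9, a heavy chain of non-muscle myosin, stood at -1.89, -1.36 and -1.25 (limma adjusted p = 0.00108, 0.00436 and 0.0161). The actin-bundling and actin-binding genes PLS3 and LIMA1 rose under 2-CM (2.51 and 2.53, limma adjusted p = 0.0375 and 0.0274). They were at 0.30 and 0.47 under DMSO and 0.74 and 0.70 under RES. Under 2-CM the median of all genes was 0.61, and 37.5% of them rose. Replicates differed widely in DMSO poly I:C, with 60.2 ± 53.9 TPM for PLS3 and 43.7 ± 26.5 TPM for LIMA1 (SD, n = 2).

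The list for type III and IV intermediate filaments, lamins and linkers also held the keratins KRT8 and KRT18 and the genes CDK5 and CDK5R1. Of its 22 genes tested, 4 fell under DMSO (KRT18, MACF1, PLEC and SYNM), and 6 fell and 5 rose under 2-CM. Under RES 1 fell, PLEC. PLEC, which ties intermediate filaments to other structures, stood at -1.85, -1.52 and -1.64 under DMSO, 2-CM and RES (limma adjusted p = 0.00715, 0.0140 and 0.0254). KRT18 stood at -0.92, -1.32 and -0.61 (limma adjusted p = 0.0423, 0.0151 and 0.228), and the lamin LMNB1 and the neurofilament NEFL rose under 2-CM (1.97 and 1.03, limma adjusted p = 0.0270 and 0.0351). The median of all genes under 2-CM was 0.61, and 37.5% of them rose. LMNB1 was at 0.49 and 0.41 and NEFL at -0.25 and 0.18 under DMSO and RES, none of them past the threshold. VIM, the filament partner of nestin, was not called under any compound. It stood at -0.42, 0.23 and 0.03, with a mean of 646 ± 58.4 TPM in DMSO depc and 490.2 ± 126 TPM in DMSO poly I:C (SD, n = 2). Of the epithelial markers, KRT8 stood at -0.71, -1.15 and -0.75 under DMSO, 2-CM and RES (limma adjusted p = 0.179, 0.0274 and 0.264). The 5 epithelial markers with a value, of which KRT8 and KRT18 made up most, summed to 1683 to 3532 TPM in depc and 1099 to 1733 TPM in poly I:C libraries, ranges that overlap. The fibroblast list summed to 471 to 934 and 448 to 977 TPM, of which VIM made up most, while its marker COL1A1 fell under each compound, as given above. The part of either in the members' values was not tested.

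Length and base composition moved with the same comparisons. The leading transcript, the one with the most TPM, had 14923 bases in LRP1, 14341 in HSPG2, 9188 in FLNC, 7759 in FN1 and 5568 in NES, beside a median of 2342 over the genes tested. Its GC content was 64.5% in HSPG2, 62.3% in FLNC, 60.1% in LRP1, 59.3% in NES and 50.6% in FN1, beside a median of 49.3%. Over the genes tested, the Spearman correlation of the poly I:C difference with GC content was -0.38 (DMSO), -0.81 (2-CM) and -0.63 (RES), and with length it was -0.30, 0.20 and -0.07. When the trend with both was subtracted, FN1 kept 80.9% of its log2 difference under DMSO (-2.13) and NES kept 67.9% (-1.43). FLNC kept 52.7% (-1.10), HSPG2 28.3% (-0.48) and LRP1 21.7% (-0.32). Under RES the same correction left -0.79, -0.57, -0.86, -0.82 and -0.73 for FN1, NES, FLNC, HSPG2 and LRP1, and under 2-CM it left -1.15, -0.32, -1.04, -0.66 and -0.52. All 15 values stayed below 0, the direction for which the genes were chosen. This correction was chosen after seeing the data, and what ties length and composition to poly I:C here was not tested.

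**Figure D4:**
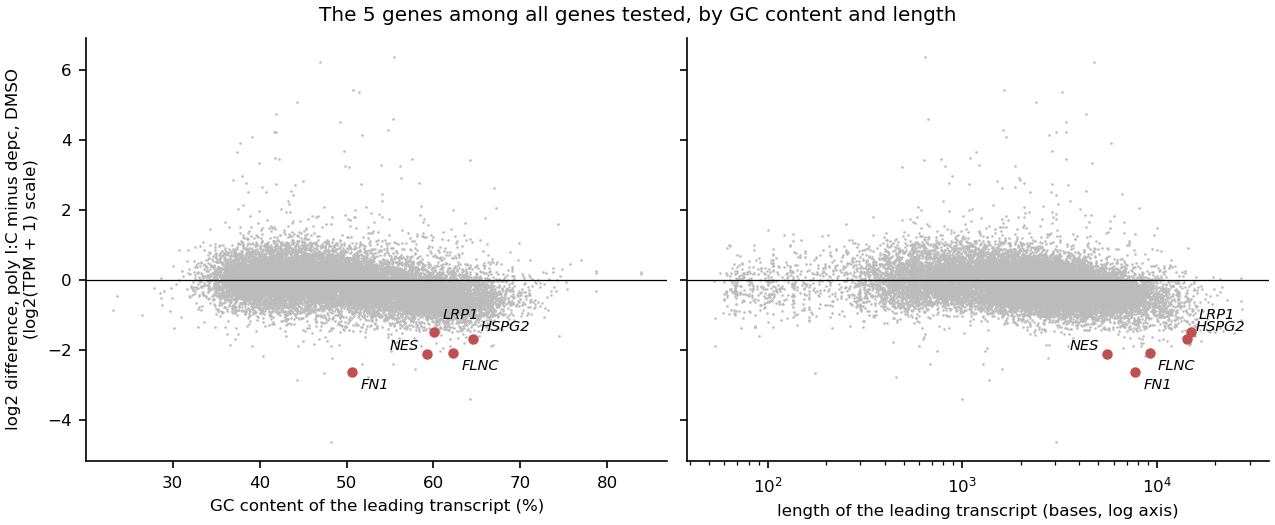
Log2 difference of poly I:C minus depc under DMSO, on the log2(TPM + 1) scale, against the GC content (left) and the length on a log axis (right) of each gene's leading transcript; grey points are the genes tested and red points the 5 members. FN1 (50.6% GC, 7759 bases, -2.64) lies far below the bulk of genes of its GC content, while HSPG2 and LRP1 lie at the long end of the length axis.

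Under DMSO, coverage with poly I:C was lower along the whole of each leading transcript. The 5′ to 3′ coverage ratio, the log2 ratio of the mean coverage of the first 33.3% of the leading transcript to that of the last 33.3%, was below 0 in every group: for LRP1 it was -1.06 ± 0.13 in depc and -1.25 ± 0.21 in poly I:C libraries (SD, n = 6 each). For FN1 it was -0.55 ± 0.16 and -0.63 ± 0.16, and for HSPG2 -0.83 ± 0.16 and -0.98 ± 0.23. For FLNC it was -0.60 ± 0.11 and -0.67 ± 0.18, and for NES -0.68 ± 0.05 and -0.66 ± 0.07. Under DMSO, poly I:C minus depc was 0.14 for FN1, 0.07 for NES, 0.12 for FLNC, 0.09 for HSPG2 and 0.02 for LRP1. In the same order, the difference was -0.36, -0.01, -0.20, -0.40 and -0.27 under RES. Under 2-CM it was -0.01, 0.02, -0.12, -0.13 and -0.30. A two-sided exact permutation test of the transfection labels within compound gave p-values from 0.148 (LRP1) to 0.583 (FN1), and 0.407 to 0.713 after Benjamini-Hochberg adjustment over 11 measures of transcripts and coverage. The smallest p this exact test can give is 0.00926. RES poly I:C replicate 1 stood apart, with the lowest ratio of the 12 libraries for FN1 (-0.95, against -0.57 in replicate 2), FLNC (-0.92 against -0.46), HSPG2 (-1.42 against -0.83) and LRP1 (-1.53 against -0.97). For NES it was -0.67 against -0.73. The part of this in the RES values was not tested. Without that library the poly I:C differences under RES were -0.90 for FN1, -1.09 for NES, -1.78 for FLNC, -1.90 for HSPG2 and -1.72 for LRP1. FN1 with poly I:C under RES then differed by 0.54 from DMSO and by -1.33 from 2-CM.

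**Figure D5:**
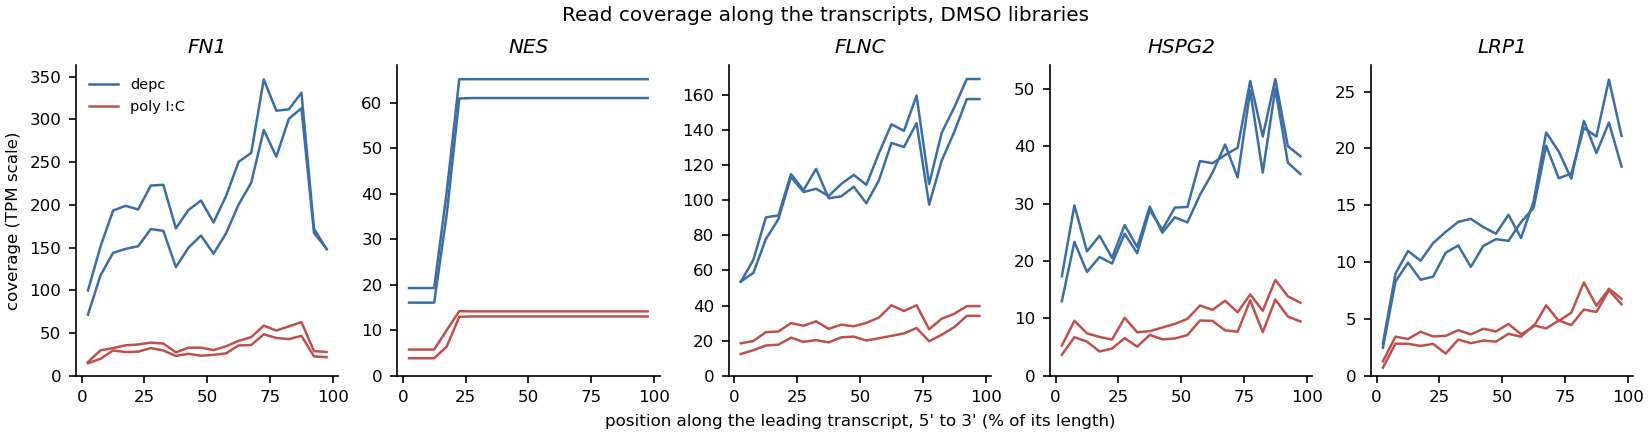
Read coverage on the TPM scale in the 4 DMSO libraries along the leading transcript of each gene, 5′ to 3′ in percent of its length, from the deposited mean coverage of each exon (a long exon is a flat line, as in NES). Blue lines are depc and red lines poly I:C libraries; red lies below blue along each transcript.

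LRP1 and HSPG2 were each carried by a single leading transcript. In LRP1 its share of the gene's TPM was 96.6 ± 0.82% in depc and 92.3 ± 2.00% in poly I:C libraries (SD, n = 6 each), with no overlap between the transfections (exact permutation p = 0.00926, adjusted 0.102). In HSPG2 the shares were 96.4 ± 1.05% and 94.0 ± 2.35% (exact permutation p = 0.0278, adjusted 0.153). Neither passed after adjustment, and LRP1 could not have done so alone, since the smallest p of the exact test is 0.102 after adjustment when 1 of the 11 measures reaches it. A part of each gene is shared with another gene, and without a strand option such reads cannot be assigned: LRP1 shares 59 exonic bases with STAT6 (35.5 to 75.4 TPM) and 112 with LRP1-AS, HSPG2 shares 1659 with LDLRAD2 (at most 0.33 TPM), and FLNC 68 with FLNC-AS1. From exonic coverage outside the shared bases, the log2 difference under DMSO was -1.56 for LRP1, -1.73 for HSPG2 and -2.09 for FLNC, against -1.56, -1.71 and -2.09 from all exons.

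FN1 and FLNC are spliced in more than one way, and the exons concerned are shown because the transcript estimates and the exon coverage of these genes differed. The extra domain exons EDB and EDA of FN1 each encode a fibronectin type III repeat. EDB is 273 bases (chr2:215392931-215393203, hg38, minus strand), EDA is 270 bases (chr2:215380811-215381080, minus strand), and the FLNC exon is 99 bases (chr7:128849976-128850074, plus strand), present in ENST00000325888.12 and absent from ENST00000346177.6. Each is printed whole in lower case, 5′ to 3′ as transcribed.
EDB: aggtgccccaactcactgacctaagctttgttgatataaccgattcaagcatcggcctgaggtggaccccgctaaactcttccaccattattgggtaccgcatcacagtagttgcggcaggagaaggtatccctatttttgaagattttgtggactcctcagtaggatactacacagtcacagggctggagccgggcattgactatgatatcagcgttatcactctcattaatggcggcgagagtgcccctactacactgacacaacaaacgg
EDA: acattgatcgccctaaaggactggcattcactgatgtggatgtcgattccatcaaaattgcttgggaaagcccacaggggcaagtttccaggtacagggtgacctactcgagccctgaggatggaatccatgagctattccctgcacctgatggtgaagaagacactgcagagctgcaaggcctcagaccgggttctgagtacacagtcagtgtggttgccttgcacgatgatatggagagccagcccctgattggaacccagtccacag
FLNC exon: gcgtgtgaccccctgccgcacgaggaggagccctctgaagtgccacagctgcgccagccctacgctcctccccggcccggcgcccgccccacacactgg
The deposited transcript TPM gave the FLNC transcript with the exon 57.3 and 113 TPM in the 2 DMSO depc libraries and the transcript without it 55.5 and 3.99 TPM. Its share of the gene ran from 31.3 to 99.97% over the 12 libraries. The coverage of the exon itself was 91.7 to 114% of that of its neighbours. In the DMSO depc replicates it was 91.7 and 96.9%, where the transcript share was 50.8 and 96.6%, and in the RES depc replicates it was 92.4 and 111%, where the share was 94.1 and 95.5%. For EDB, the share of transcripts that include it was 51.8 ± 20.2% in depc and 53.5 ± 16.9% in poly I:C libraries (SD, n = 6 each, exact permutation p = 0.880, adjusted 0.880), and its coverage was 49.96 to 64.7% of that of its neighbours. For EDA the transcript estimate was 12.6 ± 1.96% and 17.5 ± 6.65% (exact permutation p = 0.0556, adjusted 0.204), while its coverage was 55.6 to 72.2% of that of its neighbours. For EDA the transcript estimate lay below the coverage measure in every library, and the estimate did not shift with poly I:C past the threshold. Gene TPM sums transcripts of unequal length and so depends in part on this split. From exonic coverage, which does not use it, the log2 differences of FN1 were -2.52, -0.87 and -1.22 under DMSO, 2-CM and RES, against -2.64, -0.79 and -1.12 from summed TPM. Those of FLNC were -2.09, -1.79 and -1.68 by either measure.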

How the data were processed

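Polyadenylated RNA of NS-SV-AC cells was sequenced as stranded paired-end libraries. Reads were processed by the authors with HISAT2 2.1.0 on hg38, StringTie and DESeq2, per the submitters' processing notes, and StringTie 2.0.4 was limited to GENCODE 32 transcripts without a strand option, per the file headers. The authors deposited coverage, FPKM and TPM for each transcript, and coverage for each exon, per the file headers. A deposited table for each compound compares poly I:C with depc and holds the authors' log2 changes with p-values, per the file headers.

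Here transcript TPM was summed to genes (Python 3.11.15). Read numbers were estimated from coverage. In R 4.3.3, a model of the 6 groups was fitted to log2(TPM + 1) by limma 3.58.1 with trended moderation. It took the 17185 genes that reached 1 TPM in 2 libraries or more. Residual degrees of freedom were 6, and the prior ones had a median of 2.74. The +1 understates the change of low genes. Adjusted p-values of genes are limma's, by Benjamini-Hochberg over all genes in a contrast, with a threshold of 0.05. The model was tested on simulated data. No table of read counts was used, and estimated reads entered an alternative fit with voom alone. The labels do not say that replicates came from separate cultures, so p-values measure the spread between these samples, which may be technical. Deposited columns without a sample numbered 0.

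The 5 members, the lists and the named genes were chosen with earlier results of these data known. The 5 lists were written from general knowledge. Named genes are the 3 genes outside the 5 members that were most correlated with each member (mean TPM of 5 or more). Also named are the 2 lowest and 2 highest genes of each list by the poly I:C difference averaged over compounds (mean TPM of 5 or more). Paralogs and overlapping genes are named too. Other genes are named where they make up a count. Alternatives were FPKM, other scalings, voom on estimated reads, other filters and pseudocounts, a replicate block, fits without mitochondrial genes or of the compared groups only, each library left out, and corrections for GC content and length, which subtract a smoothed trend of each library on these properties. Introns of the deposited annotation began and ended with GT and AG in 97.0% of 219885 cases in the genome used. The markers MUC7, KRT5, KRT14, KRT19, PTPRC and CD3E were not analysed here, and a few other genes that the rules name are not reported here. The immune marker CD14 ran from 7.04 to 15.8 TPM, and the 5 myoepithelial markers summed to 28.1 to 42.6 TPM in depc and 17.9 to 33.6 TPM in poly I:C libraries.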

Additional observations from a re-analysis of the deposited data

How the results depend on the processing

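Every one of 24 alternatives left all 5 genes lower with poly I:C under each compound. They were chosen for that direction, so nothing is read from this. Another filter, a replicate block or a left-out library of another group also cannot move such a difference. The number of the 5 genes called between compounds, a description from which nothing is read, moved more. For 2-CM against DMSO with poly I:C it was 2, and became 1 with FPKM (0.0815% of all genes called). It was 0 with upper-quartile (0.0233%) or median-of-ratios scaling (0.0116%), with voom (0.0116%) and with a pseudocount of 0.1 (0.0582%). It was also 0 without mitochondrial genes (0.0324%) and in a fit of the compared groups alone, which called 0 genes. For RES against 2-CM with poly I:C it was 1, and became 0 with upper-quartile (0.169%) or median-of-ratios scaling (0.163%). It was also 0 without mitochondrial genes (0.286%) and in the fit of the compared groups, which called 0 genes. It was 2 without a filter (0.503%) and after GC correction (11.1%), and 3 after GC and length correction (11.2%). In depc cells it was 0 for RES against DMSO. It became 1 with voom (0.669%) and 3 after GC (12.7%) or GC and length correction (13.4%). For RES against 2-CM in depc cells it was 0, and became 1 with upper-quartile or median-of-ratios scaling (0.105% each) or voom (0.355%). It was 2 after GC correction (12.8%) and 3 after GC and length correction (13.1%). GC correction was added after seeing the data, and it also raised the calls over all genes, in RES against DMSO in depc cells from 1.03% to 12.7%.

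Of the 117 partner genes, 28 were called under DMSO. There were 7 with FPKM, 8 with upper-quartile and 3 with median-of-ratios scaling, 16 with voom, 16 without mitochondrial genes, 0 in the fit of the compared groups and 53 (49 lower, 4 higher) after GC correction, where all genes had 1582 lower and 1318 higher, and 3 to 34 with a library left out. The DMSO and 2-CM libraries lowered this count to between 3 and 11, each left out in turn. Under 2-CM the count was 56, 14 without a filter, and 0 to 62 with a library left out. Under RES it was 10, 0 with FPKM, upper-quartile or median-of-ratios scaling and in the fit of the compared groups, 3 with voom, 3 without mitochondrial genes and 27 after GC correction, where all genes had 353 lower and 251 higher, and 0 to 8 with a library left out: each library except DMSO poly I:C replicate 1 lowered it to 6 or fewer. After correction for GC content and length, 29 partner genes were lower and 3 higher under DMSO, where all genes had 747 lower and 794 higher. Under 2-CM, 42 were lower and 6 higher (2562 and 2279 of all genes), and under RES, 7 and 0 (53 and 142). The partner medians were then -0.24, -0.24 and -0.15, against -0.62, -0.01 and -0.44 without correction. Over all genes, FPKM changed the split of calls under DMSO from 137 higher and 564 lower to 88 and 37. Median-of-ratios scaling changed that under 2-CM from 6440 and 2035 to 3482 and 4046. A fit that lost a replicate of a compared group assumed that the remaining library varies like the other groups.

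The replicate numbers did not meet the criterion for pairing, a correlation of replicate differences above 0.1 in every pair of groups. It ran from -0.80 to 0.76 and was above 0.1 in 10 of 15 pairs. Those 10 were all the pairs without RES poly I:C (0.15 or more), and the 5 pairs with RES poly I:C were below 0. With the replicate number as a block, 0 members were called for 2-CM against DMSO and 0 for RES against 2-CM with poly I:C, and 18 and 6 partner genes were called under DMSO and RES. The cause of these changes was not tested. Each member had at least 1453 estimated reads in every library, while each group had 2 libraries.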
